A study of Mus musculus with 8 samples.

Results

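The difference between the stimulation responses of Mettl3-deficient and control macrophages was measured gene by gene, as the response of KO cells minus the response of WT cells. All 8 libraries of the series entered it, 2 in each of 4 groups. The cells were bone marrow-derived macrophages (BMDM), which are mouse bone marrow cells grown into macrophages in culture. WT cells came from Mettl3fl/fl mice, whose Mettl3 alleles carry loxP sites but which have no Cre. KO cells came from Lyz2-Cre-Mettl3fl/fl mice, which carry the same alleles and Cre recombinase under the Lyz2 promoter, active in myeloid cells. Each genotype was given PBS, or LPS at 50 ng/ml overnight followed by nigericin at 10 µM for 3 h according to the sample labels (the series text gives 1 h or 3 h). The age, sex and number of the mice are not in the labels. Since Cre was present in KO cells only, effects of Cre and of losing Mettl3 cannot be told apart. No label says that replicate libraries derive from separate mice or cultures, and p-values then reflect only how far the deposited libraries spread, possibly for technical reasons.

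METTL3 catalyses, within a larger complex, the reaction that places N6-methyladenosine (m6A) on mRNA, a mark read by proteins that affect the stability, splicing and translation of the transcript. LPS, a bacterial cell wall lipid, acts through TLR4 and its co-receptor CD14 to induce inflammatory and interferon genes in macrophages. Nigericin exchanges potassium for protons across membranes and triggers the NLRP3 inflammasome. Stimulated macrophages also change their mitochondria, their heme and lipid handling and their defence against oxidants, in which the transcription factor NRF2 has a central part.

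The table held 55401 genes, of which 17470 were expressed well enough to be tested. The libraries held 55032057 to 65487739 counts, and 1.84 to 3.36% of these came from the mitochondrial genome. Levels are given as CPM, counts scaled for the depth and composition of each library, in the order replicate 1 and replicate 2. Mettl3 was at 13.6 and 13.3 CPM in WT and 5.63 and 6.33 in KO with PBS. After stimulation it was at 28.2 and 23.4 CPM in WT and 9.08 and 7.87 in KO. Every KO library was thus below every WT library given the same treatment, while KO cells kept some Mettl3 reads, and whole-gene counts do not separate the floxed exons. Csf1r, the receptor of the macrophage growth factor, was at 3936 and 3861 CPM in WT with PBS. All 28 listed macrophage genes, Csf1r among them, passed the filter on low counts. Of the markers of neutrophils, T and NK cells, B and plasma cells and dendritic cells, 7 of 13, 2 of 11, 8 of 11 and 7 of 10 passed it. Their summed levels reached at most 37.7, 21.1, 77.3 and 27.6 CPM in any library. All 21 fibroblast and stromal markers passed it, with summed levels of 295 to 793 CPM that were higher in KO under both treatments.

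The responses differed between genotypes for 87 genes, 0.498% of those tested (edgeR's quasi-likelihood test, Benjamini-Hochberg adjusted p below 0.05). In 69 of them (0.395%) the response was more negative in KO, and in 18 (0.103%) it was more positive. Without adjustment, p was below 0.05 for 1033 genes with a more negative response (5.91%) and for 839 with a more positive one (4.80%). DESeq2, run as an alternative, called 294 of the 17470 genes more negative and 190 more positive, and limma-voom 67 and 17. List counts by DESeq2 given below are to be read beside these larger totals, not beside those of edgeR. The more negative genes included antioxidant and heme enzymes (Prdx1, Hmox1, Gclm, Cat), formyl peptide and scavenger receptors (Fpr1, Fpr2, Marco), complement and acute-phase genes (C3, Cfb, Saa3), lysosomal genes (Lipa, Psap) and mRNAs of the mitochondrial genome. Among the more positive ones were both mitochondrial ribosomal RNAs, Cd14, Cd163 and the stromal genes Col3a1 and Cxcl12. Differences are given on the log2 scale, so that a negative value means a smaller ratio of stimulated to PBS level in KO than in WT. The median over all tested genes was -0.0023, with quartiles at -0.28 and 0.26, and the median of the 69 genes was -1.06. Scaling by library size alone, without a factor for composition, moved the median of all genes to 0.10 and list medians with it.

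The same negative difference arose in several ways, which were sorted by the test of each genotype's own response. These tests share libraries with the difference, so the sorting is a description. Stimulation raised 26 of the 69 genes in both genotypes, by less in KO (of all tested genes 20.6% rose in WT and 20.2% in KO). A further 9 rose in WT with no call in KO, and 6 rose in WT and fell in KO (19.0% of all tested genes fell in KO). Another 12 had no call in WT and fell in KO, and 16 fell in both, further in KO. Of all tested genes, 1.20% were higher in KO than in WT with PBS, and 2.01% were lower after stimulation. Against WT, 41 of the 69 had no call with PBS and were lower in KO after stimulation, 18 were higher in KO with PBS and had no call after stimulation, and 6 were higher with PBS and lower after stimulation. Of the remaining 4, 3 were higher in KO under both treatments and 1, the ubiquitin ligase gene Rnf128, was lower under both. The 18 positive genes comprised 4 that fell in both genotypes, 3 that fell in WT with no call in KO, 5 that fell in WT and rose in KO, 5 with no call in WT that rose in KO, and 1 that rose in both.

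**Figure D1:**
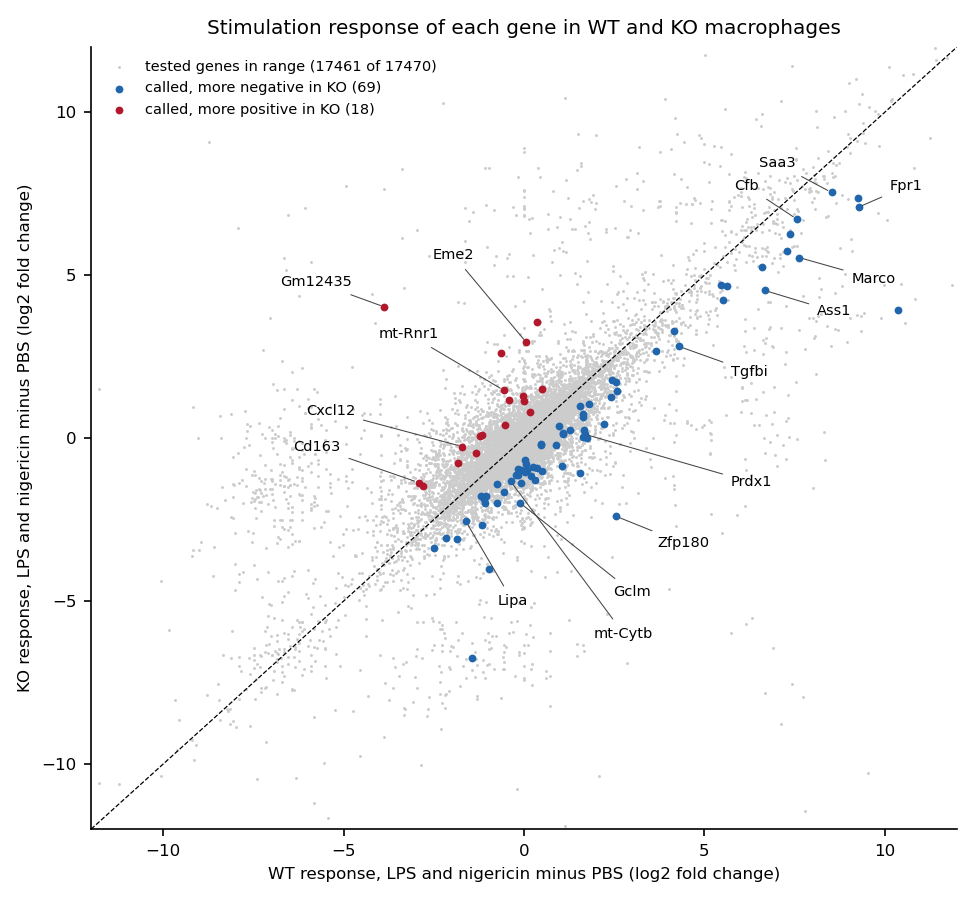
Response of each gene to LPS and nigericin in WT (horizontal axis) and KO (vertical axis), as log2 fold change of stimulated over PBS cells. Grey points are tested genes, blue points the 69 genes with a more negative response in KO, red points the 18 with a more positive one, and the dashed line marks equal responses. Prdx1 lies well to the right at a KO value near 0, while Fpr1, Marco and Ass1 rose in both genotypes and lie under the line.

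Many calls were lost when 1 library was left out. Such a fit leaves 1 library in a group and fewer residual degrees of freedom. A lost call, here and below, can therefore reflect lost power and does not show that the call rested on that library. Estimates across these fits moved little for Bax (0.60 to 0.69) and more for Fpr2 (-1.57 to -2.26). Of the 87 genes, 12 kept their call in each of the 8 fits that leave out 1 library, namely Zfp180, Ass1, Marco, Scd2, Prdx1, H2-Q6, Dnajb4, Tgfbi and H2-Q7 with a more negative response and mt-Rnr1, Gm16867 and Gm12435 with a more positive one. Leaving out stimulated KO replicate 1 kept 10 of the 69 and 3 of the 18 calls, and leaving out stimulated KO replicate 2 kept 11 and 3. Without PBS WT replicate 1 or 2 these counts were 16 and 5 or 29 and 7, without stimulated WT replicate 1 or 2 they were 50 and 9 or 23 and 5, and without PBS KO replicate 1 or 2 they were 34 and 8 or 22 and 5.

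Several antioxidant genes differed between genotypes after stimulation. Of 24 tested genes on an NRF2 and antioxidant list, 6 had a more negative response in KO (Hmox1, Gclm, Srxn1, Prdx1, Cat and Pgd). A more positive one was called for 0. The list was chosen with earlier results of these data known. The median difference over the list was -0.66, and 22 of its 24 members lay below 0. By unadjusted p, 14 members were more negative and 0 more positive. DESeq2 called 13 and limma-voom 6 of them, all more negative, and 1 to 6 were called when 1 library was left out. The list includes Prdx1 (ENSMUSG00000028691, chromosome 4, 116685544 to 116700822, plus strand, GRCm38), an abundant cytosolic peroxidase, Gclm (ENSMUSG00000028124, chromosome 3, 122245557 to 122270732, plus strand), the modifier subunit of the enzyme that limits glutathione synthesis, and Srxn1 (ENSMUSG00000032802, chromosome 2, 152105516 to 152111376, plus strand), which reactivates oxidised peroxiredoxins.

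Promoter stretches of these 3 genes are shown because NRF2 acts through a short DNA motif, the antioxidant response element, searched here as TGACNNNGC on both strands of the 250 bases before each RefSeq start (GRCm38.p6). Capitals mark the match in Prdx1 and Gclm, which is on the strand opposite to the gene, and in Srxn1 a match to the related AP-1 motif, searched as TGANTCA. The stretches are chr4:116685436-116685504, chr3:122245393-122245461 and chr2:152105449-152105515, all on the plus strand and outside annotated exons.
Prdx1: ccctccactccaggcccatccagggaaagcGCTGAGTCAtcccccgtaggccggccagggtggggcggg
Gclm: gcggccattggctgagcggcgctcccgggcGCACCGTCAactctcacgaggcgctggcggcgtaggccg
Srxn1: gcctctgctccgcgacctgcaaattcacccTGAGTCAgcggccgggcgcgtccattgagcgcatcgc
The match lay 133 to 125 bases before the start in Prdx1 and 134 to 126 bases before it in Gclm. In Prdx1 it overlaps a match to the AP-1 motif, and Srxn1 has a further AP-1 match 102 to 96 bases before its start. Of 32851 RefSeq promoters 10.2% held TGACNNNGC, as did 14% of those of 11115 tested genes with a promoter in the table. The share was 17% for 53 genes with a more negative response (9 genes) and 21.4% for 14 with a more positive one (3 genes). It was 35% for 20 genes of the NRF2 list (7 genes). Prdx1 and Gclm were among these 7, and the other called members of that list, Hmox1, Srxn1, Cat and Pgd, were not. The stretches shown thus do not stand for all called genes of the list. TGANTCA stood in 6.75% of all promoters, in 5.87% of those of tested genes, in 7 of the 53 and in 0 of the 14. These are matches of letters, and binding was not measured.

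Prdx1 was at 1198 and 1236 CPM in WT and 1288 and 1329.8 in KO with PBS, and at 3689.6 and 4138 in WT and 1409 and 1427 in KO after stimulation. It rose in WT by 1.68 ± 0.069, while the KO value was 0.12 ± 0.068, a difference of -1.57 ± 0.096 (SE, n = 2 per group, adjusted p = 0.00293). The stimulated KO libraries stayed near the PBS level of either genotype. Gclm was at 117 and 135 CPM in WT and 162 and 146 in KO with PBS, then at 108 and 122 in WT and 33.9 and 44.1 in KO. Its difference was -1.85 ± 0.20 (adjusted p = 0.0205), since WT libraries kept their level and stimulated KO libraries were the lowest of all 8. Srxn1 had the same order, at 209 and 186 and 210.0 and 175 CPM with PBS against 202 and 201 in WT and 95.9 and 92.7 in KO after stimulation (-1.06 ± 0.14, adjusted p = 0.0417).

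Hmox1 (ENSMUSG00000005413, chromosome 8, 75093621 to 75100589, plus strand), which encodes the heme oxygenase that splits heme into biliverdin, iron and carbon monoxide, was at 937 and 901 CPM in WT and 901 and 842 in KO with PBS. After stimulation it reached 2729 and 2982 CPM in WT and 1358 and 1354 in KO, a difference of -0.998 ± 0.095 (adjusted p = 0.014). Both genotypes rose without overlap between their stimulated libraries. Blvrb, a biliverdin reductase that acts after heme oxygenase, went from 200.4 and 213 to 403 and 463 CPM in WT and from 226 and 239 to 258 and 256 in KO (-0.92 ± 0.12, adjusted p = 0.0322). The catalase gene Cat, whose enzyme breaks down hydrogen peroxide, fell in WT from 642 and 673 to 434 and 460.0 CPM and in KO from 614 and 665 to 206 and 201 (-1.098 ± 0.096, adjusted p = 0.0105). Pgd, a dehydrogenase of the pentose phosphate pathway that supplies NADPH, rose in WT (0.48 ± 0.061) and fell in KO (-0.201 ± 0.061), a difference of -0.68 ± 0.086 (adjusted p = 0.0322).

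Other enzymes and an adaptor of oxidant and carbonyl defence, chosen after their values were seen, are given next. They were picked among called genes with a more negative response, so their shared sign follows from that choice. Ptgr1, a reductase of prostaglandins and reactive aldehydes, rose in WT from 29.9 and 30.7 to 88.9 and 99.5 CPM and was at 31.3 and 34.2 and then 32.7 and 34.9 in KO (-1.59 ± 0.13, adjusted p = 0.00877). The esterase gene Esd gave -1.42 ± 0.13 and Sqstm1, the autophagy adaptor p62, gave -1.04 ± 0.12 (adjusted p = 0.014 and 0.023). The aldo-keto reductase Akr1b8 fell in both genotypes (-1.25 ± 0.11, adjusted p = 0.013), and the carbonyl reductase Cbr3 was 41.7 and 41.4 CPM in KO with PBS against 25.4 and 25.3 in WT and fell in KO only by its own test (-0.96 ± 0.13, adjusted p = 0.0361). Nfe2l2, which encodes NRF2, was at 350.3 and 341 CPM in WT and 400.1 and 401 in KO after stimulation, with a difference of 0.04 ± 0.079 (adjusted p = 0.912). Of the 12 called genes in these paragraphs Prdx1 kept its call without any 1 library. Leaving out 1 library ended 3 to 11 of the 12 calls, the most without stimulated KO replicate 1, where Srxn1 reached an adjusted p of 0.161.

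**Figure D2:**
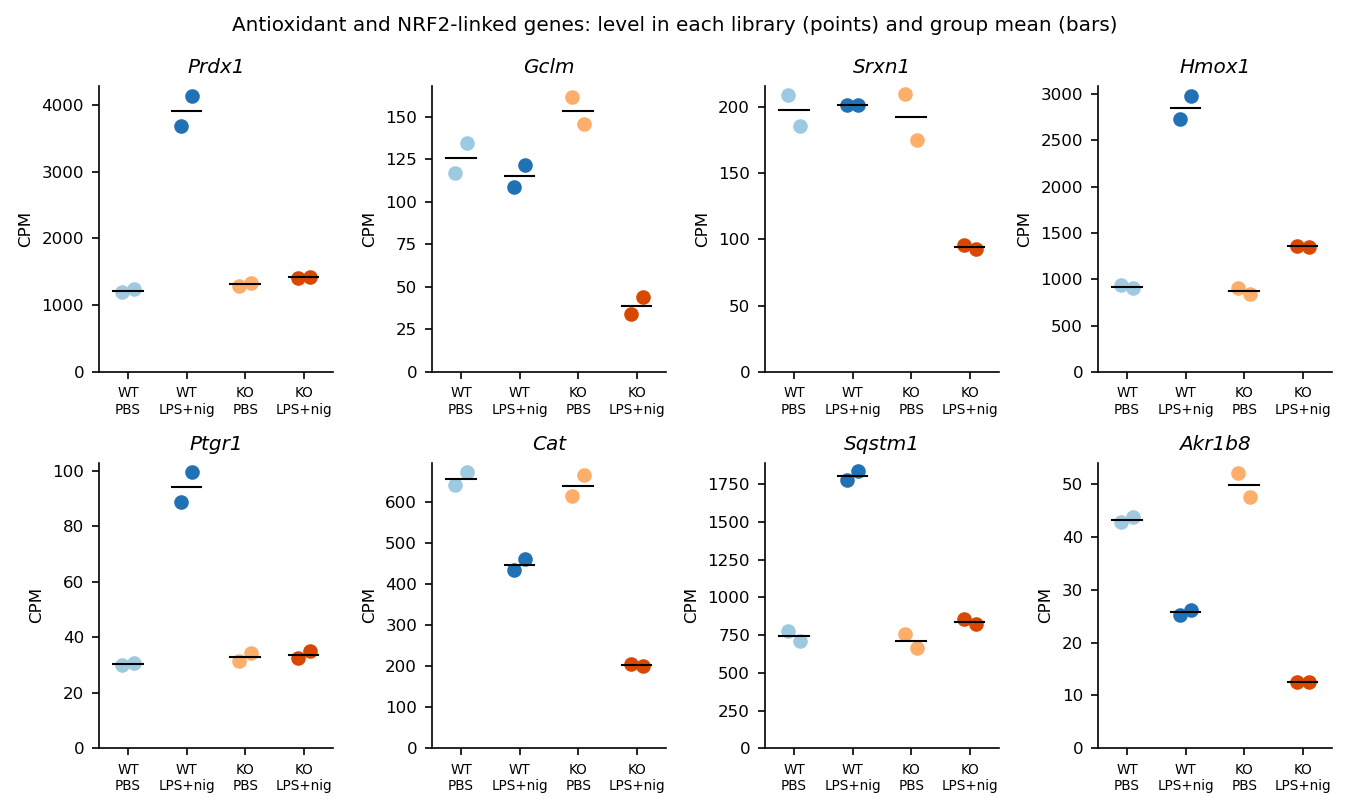
Levels (CPM, linear axis from 0) of antioxidant and heme genes in each of the 8 libraries, with points for libraries and bars for group means. With PBS the genotypes lie close together in most panels, and after stimulation the KO libraries lie under the WT libraries, for Prdx1 at 1409 and 1427 against 3689.6 and 4138 CPM.

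Another pattern was a higher starting level in KO. Of the 26 genes that rose in both genotypes, by less in KO, 20 were higher in KO with PBS, and their stimulated levels were often close. Fpr1 (ENSMUSG00000045551, chromosome 17, 17876471 to 17883940, minus strand) and its neighbour Fpr2 (chromosome 17, 17887824 to 17893952, plus strand) encode receptors for formylated bacterial and mitochondrial peptides. Fpr1 was at 1.17 and 0.782 CPM in WT and 4.07 and 4.902 in KO with PBS, and at 582 and 623 and 618 and 602 after stimulation, a difference of -2.18 ± 0.23 (adjusted p = 0.0161). Fpr2 was at 0.737 and 1.203 CPM in WT and 4.07 and 3.46 in KO with PBS, and at 559 and 627 and 624 and 619.8 after stimulation (-1.88 ± 0.26, adjusted p = 0.044). The genotypes overlapped after stimulation for both genes and did not overlap with PBS. Marco (chromosome 1, 120474538 to 120505024, minus strand), a scavenger receptor for bacteria and particles, started at 3.79 and 3.65 CPM in WT and 12.4 and 11.998 in KO and reached 732 and 739.5 and 582 and 551 (-2.09 ± 0.088, adjusted p = 0.0014). Unlike Fpr1 and Fpr2 it was also lower in KO after stimulation (-0.38 ± 0.059). Marco kept its call without any 1 library, whereas 1 or 2 of these 3 calls were lost in 7 of the 8 fits, with Fpr2 at an adjusted p of 0.172 without stimulated KO replicate 1.

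The acute-phase gene Saa3 and the complement genes Cfb, C3 and Cd55 started higher in KO and ended near or above the WT level. Saa3 (ENSMUSG00000040026, chromosome 7, 46711998 to 46715700, minus strand), a serum amyloid A protein made by activated macrophages, was at 82.9 and 91.8 CPM in WT and 168 and 174 in KO with PBS. It reached 30998 and 33202 in WT and 32304 and 31183 in KO (-0.98 ± 0.094, adjusted p = 0.014), with overlapping stimulated libraries. Factor B of the alternative complement pathway, Cfb, went from 22.3 and 23.4 to 4261 and 4382 CPM in WT and from 44.4 and 44.2 to 4634 and 4689 in KO (-0.84 ± 0.075, adjusted p = 0.0105). C3, the central complement protein, was higher in KO under both treatments, at 321 and 323 against 103 and 100.2 CPM with PBS and 3168 and 3154 against 1914 and 1722 after stimulation. Its rise was nevertheless smaller in KO (-0.87 ± 0.091, adjusted p = 0.0168). The complement list had 6 of 20 members with a more negative response (C3, Cfb, the C3a receptor C3ar1, the complement inhibitor Cd55 and the integrin chains Itgb2 and Itgax), 0 with a more positive one, and a median of -0.20 (-0.09 when scaled by library size alone). C3ar1, Itgb2 and Itgax differed from the other 3 in being lower in KO after stimulation, and C3ar1 and Itgax had no call with PBS. Cd55 stood at 2.27 and 2.35 CPM in WT and 8.27 and 8.99 in KO with PBS and at 12.2 and 12.5 and 21.1 and 19.8 after stimulation (-1.17 ± 0.15, adjusted p = 0.0357), and this call was lost in each of the 8 fits without 1 library.

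The near-identical class I genes of the MHC, H2-Q6 and H2-Q7, may share counts. They went from 3.68 and 3.505 and from 6.599 and 6.54 CPM in WT with PBS to 541 and 581 and to 615 and 651. In KO they started at 9.98 and 9.899 and at 17.9 and 19.6 CPM and reached 528 and 534 and 703 and 724, with differences of -1.55 ± 0.093 and -1.34 ± 0.099 (adjusted p = 0.00293 and 0.00535). They were the 2 called members of the 19 MHC class I genes tested, whose median was -0.20 (-0.09 by library size alone). Slpi, a secreted inhibitor of neutrophil proteases, gave -1.27 ± 0.14, and Cd38, an NAD-consuming surface enzyme, gave -1.12 ± 0.12 (adjusted p = 0.0205 and 0.0161), each from a PBS level higher in KO. The same held for the chemokine Ccl5, at 149.7 and 175 and 258 and 271 CPM with PBS and 7535 and 8408 and 6925 and 6525 after stimulation (-0.95 ± 0.13, adjusted p = 0.044). It also held for Aoah, an enzyme that inactivates LPS by removing its acyl chains (-0.98 ± 0.13, adjusted p = 0.0426). Among 60 interferon-stimulated genes, 1 was more negative and 0 more positive, namely Oasl1 (-0.76 ± 0.11, adjusted p = 0.0466). The list median was -0.24 (-0.13 by library size alone), and 48 members lay below 0. At unadjusted p below 0.05, 11 were more negative and 0 more positive, and DESeq2 called 5 and 0. Leaving aside C3ar1 and Itgax, of the 15 called genes in the paragraphs on higher starting levels, each higher in KO with PBS, H2-Q6, H2-Q7 and Marco kept their call without any 1 library. Between 5 and 12 of the 15 calls were lost otherwise, the most without either stimulated KO library, and Oasl1 reached an adjusted p of 0.207 without stimulated KO replicate 1.

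**Figure D3:**
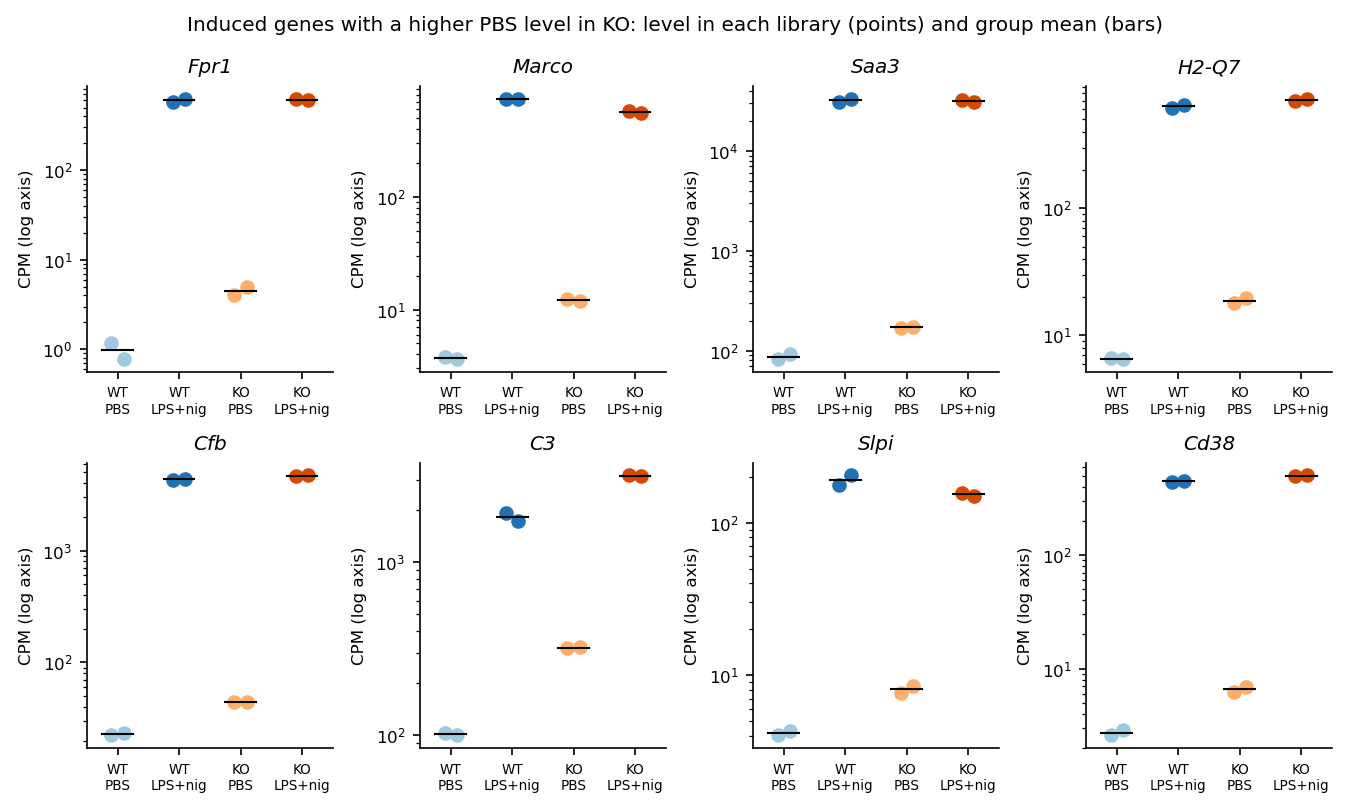
Levels (CPM, log axis) of genes that rose less in KO, in each library, with points for libraries and bars for group means. KO libraries lie above WT libraries with PBS, and after stimulation the genotypes meet for Fpr1 and Saa3, lie apart in the same order for C3 and in the opposite order for Marco.

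Some induced genes had a lower stimulated level in KO. Ass1 (ENSMUSG00000076441, chromosome 2, 31470207 to 31520672, plus strand), which makes argininosuccinate and so recycles citrulline to arginine, rose from 2.85 and 3.25 to 304 and 319 CPM in WT and from 6.66 and 7.03 to 159 and 157 in KO (-2.14 ± 0.12, adjusted p = 0.00265). KO libraries were thus the higher ones with PBS and the lower ones after stimulation. Scd2, a fatty acid desaturase, rose from 29.6 and 29.1 to 143 and 132 CPM in WT and from 32.96 and 33.9 to 42.8 and 47.01 in KO (-1.803 ± 0.12, adjusted p = 0.00332). The secreted matrix protein Tgfbi, induced by TGF-beta, rose from 245 and 223 to 4424 and 4749.8 CPM in WT and from 326 and 297 to 2168 and 2202 in KO (-1.48 ± 0.11, adjusted p = 0.00535). For Scd2 and Tgfbi the genotypes stood much closer together with PBS than after stimulation. Tnfrsf1b, the second TNF receptor, showed a smaller difference (-0.56 ± 0.076, adjusted p = 0.0418) that was lost in each of the 8 fits without 1 library.

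Stress and amino acid genes were also among those with a lower stimulated level. The heat shock co-chaperone Dnajb4 went from 30.3 and 30.6 to 42.6 and 42.9 CPM in WT and from 27.6 and 26.8 to 13.3 and 13.9 in KO, a rise in one genotype and a fall in the other (-1.49 ± 0.11, adjusted p = 0.00535). It was the called member among 20 heat shock genes, whose median was -0.03 (0.08 by library size alone). Atf5, a stress-response transcription factor, was at 92.7 and 100.1 CPM in WT and 37.8 and 36.7 in KO after stimulation (-1.100 ± 0.13, adjusted p = 0.023). Pck2, the mitochondrial PEP carboxykinase, gave -1.36 ± 0.17, and the kinase gene Sgk1 gave -0.97 ± 0.084 (adjusted p = 0.0315 and 0.0105). None of 35 listed genes of both stress pathways, the integrated stress response and the unfolded protein response, was called by edgeR or limma-voom, while 15 were more negative and 1 more positive at unadjusted p below 0.05, and DESeq2 called 7 more negative and 0 more positive. Their median difference was -0.41. Asns, the asparagine synthetase, was at 80.2 and 87.03 CPM in WT and 27.9 and 30.7 in KO after stimulation (-1.57 ± 0.25, adjusted p = 0.0695), and Ddit3, the factor CHOP, at 71.2 and 75.95 and 40.8 and 38.7 (-0.899 ± 0.14, adjusted p = 0.065). Of the 8 called genes in the last 2 paragraphs, Ass1, Dnajb4, Scd2 and Tgfbi kept their call without any 1 library. Leaving out 1 library ended 2 to 4 of the 8 calls, with Tnfrsf1b at an adjusted p of 0.179 without stimulated KO replicate 1.

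Genes that stimulation lowered, and lowered further in KO, included lysosomal and surface genes of macrophages. Lipa (ENSMUSG00000024781, chromosome 19, 34492318 to 34527474, minus strand), the acid lipase that frees cholesterol and fatty acids in lysosomes, fell from 1904 and 2099 to 651 and 658 CPM in WT and from 2173 and 2429 to 388 and 393 in KO (-0.94 ± 0.11, adjusted p = 0.023). Psap, the precursor of the saposins that activate lysosomal lipid hydrolases, fell from 19341 and 20524 to 9432 and 9839.9 CPM in WT and from 21302 and 23412 to 6462 and 6497 in KO (-0.74 ± 0.089, adjusted p = 0.0279). Stimulated KO libraries were the lowest for both genes. These were the 2 called members among 34 lysosomal genes. The list median was -0.22 (-0.12 by library size alone), with 32 members below 0, and 12 members more negative against 1 more positive at unadjusted p below 0.05.

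Gpnmb, a glycoprotein of lysosomes and the cell surface, fell from 16296 and 17192 to 7581 and 7813 CPM in WT and from 16398 and 17986 to 4664 and 4791 in KO (-0.74 ± 0.088, adjusted p = 0.026). The growth factor Igf1 had a difference of -0.91 ± 0.088, the macrophage elastase Mmp12 of -0.58 ± 0.082 and the C3a receptor C3ar1 of -0.68 ± 0.074 (adjusted p = 0.0141, 0.0466 and 0.0205). Itgax, the CD11c integrin chain, was at 218 and 230.3 and 259 and 287 CPM with PBS and at 239 and 234 and 136 and 142 after stimulation (-1.05 ± 0.10, adjusted p = 0.0141). It had no call in WT and fell in KO, as did Clec4n, the lectin dectin-2 that binds fungal mannans (-1.32 ± 0.17, adjusted p = 0.0322). So did Panx1, a plasma membrane channel for ATP, at 18.8 and 20.4 CPM in WT and 10.8 and 12.5 in KO after stimulation (-1.14 ± 0.16, adjusted p = 0.0466). Panx1 was the called member among 25 inflammasome and pyroptosis genes, and lost its call in each of the 8 fits without 1 library.

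Both Vwf, the von Willebrand factor, and Rell1, a member of the RELT family, differed mainly with PBS. Vwf was at 44.8 and 45.8 CPM in WT and 130.3 and 143 in KO with PBS and at 12.5 and 12.3 and 16.3 and 15.7 after stimulation (-1.22 ± 0.11, adjusted p = 0.0105). Rell1 was at 38.03 and 35.4 and 119 and 109 CPM with PBS and at 16.4 and 16.6 and 19.2 and 16.98 after stimulation (-1.500 ± 0.13, adjusted p = 0.0105). None of the 11 genes with values in these 3 paragraphs on falling genes kept its call in all 8 fits without 1 library. Without stimulated KO replicate 2 all 11 calls were lost, without replicate 1 of that group or PBS WT replicate 1 10 were lost, and the other 5 libraries ended 2 to 8. The largest adjusted p was 0.207, for Mmp12 without stimulated KO replicate 1.

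The mitochondrial genome gave differences of opposite sign for its ribosomal RNAs and its mRNAs, and of both signs for its transfer RNAs (tRNAs). Of tRNAs with a group mean of at least 10 CPM, mt-Ta (1.00 ± 0.30) and mt-Tn (1.06 ± 0.30) lay above 0. The tRNAs mt-Te (-0.61 ± 0.19) and mt-Tl1 (-0.34 ± 0.23) lay below it, and none of these was called (adjusted p from 0.244 to 0.658). The 12S and 16S ribosomal RNAs, mt-Rnr1 (chromosome M, 70 to 1024, plus strand) and mt-Rnr2 (chromosome M, 1094 to 2675, plus strand), build the mitochondrial ribosome, and the mRNAs encode subunits of the respiratory chain and ATP synthase. mt-Rnr1 was at 263 and 297 CPM in WT and 303 and 313 in KO with PBS, and at 181 and 198 and 867 and 832 after stimulation. It fell in WT (-0.56 ± 0.081) and rose in KO (1.46 ± 0.082), a difference of 2.03 ± 0.12 (adjusted p = 0.00268). mt-Rnr2 was at 353 and 407 and 352 and 392 CPM with PBS, and at 362 and 385 in WT and 927 and 897 in KO after stimulation (1.32 ± 0.13, adjusted p = 0.0141). For each rRNA the stimulated KO libraries stood alone, far above the other 6.

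All 13 mitochondrial mRNAs had differences below 0, with a median of -0.88, though several varied widely between libraries of a group. Of these, 4 were called more negative (mt-Nd2, mt-Nd5, mt-Nd6 and mt-Cytb) and 0 more positive, and at unadjusted p below 0.05 there were 10 and 0. The cytochrome b mRNA mt-Cytb was at 2330.3 and 2409 CPM in WT and 2425 and 2325 in KO with PBS, then at 1731 and 1928 in WT and 967 and 926 in KO (-0.95 ± 0.098, adjusted p = 0.0161). mt-Nd5, a complex I subunit, was at 1504 and 1477 and 877 and 803 CPM after stimulation (-0.79 ± 0.086, adjusted p = 0.0203). mt-Nd6 is the mRNA encoded on the other strand from the rest, and its difference was -0.88 ± 0.090 (adjusted p = 0.0161). That of mt-Nd2 was -0.86 ± 0.11 (adjusted p = 0.0357). In all 4 the PBS libraries of both genotypes lay together and the stimulated KO libraries were lowest.

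The widely varying mRNAs were not called. In stimulated KO libraries mt-Co2 was at 2148 and 1114 CPM, mt-Co3 at 1996 and 941 and mt-Atp8 at 598 and 292. Replicate 1 thus lay within the range of the PBS libraries and replicate 2 below it. mt-Atp6, a subunit of ATP synthase that overlaps mt-Atp8, was at 491 and 1848 CPM in WT with PBS and 577 and 2955 after stimulation. In KO it was at 431 and 2415 CPM with PBS and 547 and 249 after stimulation. Replicate 2 was thus the higher library in every group but stimulated KO. The mt-Atp6 difference was -2.43 ± 1.52 (adjusted p = 0.634). mt-Co1, the most abundant of the mRNAs, gave -0.396 ± 0.13 (adjusted p = 0.32). Mitochondrial reads made up 2.36 and 1.84% of the counts in stimulated KO libraries, against 2.58 and 2.87% in stimulated WT libraries and 2.91 to 3.36% with PBS. None of 34 nuclear genes of the respiratory chain or of 22 genes of mitochondrial gene expression was called by edgeR, DESeq2 or limma-voom, and in both lists 0 had an unadjusted p below 0.05. Their median differences were -0.04 and 0.0034 (0.06 and 0.11 by library size alone). Of the 6 called mitochondrial genes mt-Rnr1 kept its call without any 1 library. Leaving out 1 library ended 0 to 5 of the 6 calls, the most without either stimulated KO library, with mt-Nd2 at an adjusted p of 0.137 without replicate 2. Mitochondrial genes have nuclear copies, with which they may share counts, and whether poly(A) RNA was selected or ribosomal RNA removed is not given in the sources used here.

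**Figure D4:**
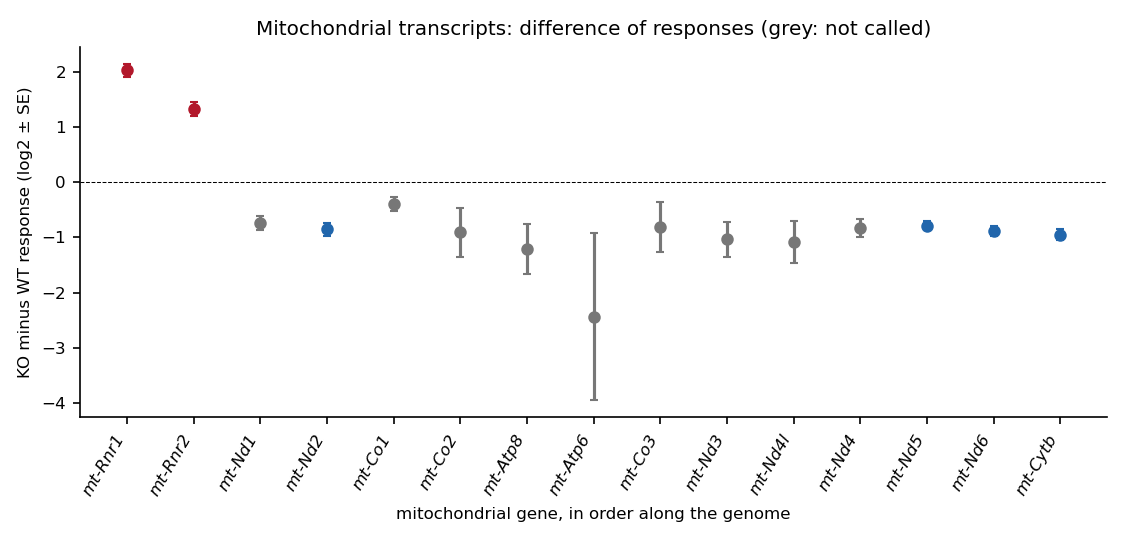
Difference of responses (KO minus WT, log2) for mitochondrial ribosomal RNAs and mRNAs in their order along the genome, with bars of 1 SE. The tRNAs are not drawn. The 2 ribosomal RNAs lie above 0 and the 13 mRNAs below it, with a wide error bar for mt-Atp6.

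Among genes with a more positive response in KO was Cd14 (ENSMUSG00000051439, chromosome 18, 36725067 to 36726798, minus strand), the co-receptor that hands LPS to TLR4. It was at 1121 and 1081 CPM in WT and 689.8 and 578 in KO with PBS, and at 1074 and 1118 and 1416 and 1347 after stimulation (1.13 ± 0.13, adjusted p = 0.0225). KO libraries were the lowest with PBS and the highest after stimulation, while WT libraries stayed level. Cd14 was the called member among 25 Toll-like receptor and adaptor genes, whose median was -0.01 (0.10 by library size alone). Cd163, the macrophage receptor for hemoglobin bound to haptoglobin, fell from 8.36 and 7.78 to 1.0003 and 1.12 CPM in WT and from 7.899 and 8.03 to 3.27 and 2.91 in KO (1.56 ± 0.21, adjusted p = 0.0413). The anthrax toxin receptor Antxr2 fell from 327 and 305 to 90.6 and 85.8 CPM in WT and from 248 and 231 to 137 and 144 in KO (1.07 ± 0.10, adjusted p = 0.014). Like Cd163 it fell less in KO, as did the Wnt receptor Fzd7 (0.88 ± 0.12, adjusted p = 0.0405) and the nuclear envelope protein gene Syne2 (1.34 ± 0.19, adjusted p = 0.044).

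Bax, a pore-forming inducer of apoptosis and a p53 target, was at 89.3 and 88.6 and 72.7 and 77.3 CPM with PBS and at 99.4 and 98.1 and 129.9 and 130.2 after stimulation (0.64 ± 0.090, adjusted p = 0.0466). It was the called member among 30 necroptosis and apoptosis genes, whose median was 0.06 (0.16 by library size alone). The methyltransferase gene Setd6 gave 1.58 ± 0.16, Nagpa, which exposes the mannose 6-phosphate tag of lysosomal enzymes, 0.996 ± 0.14, and the scaffold gene Tanc1 1.26 ± 0.17 (adjusted p = 0.0161, 0.0417 and 0.0413). Setd6 and Nagpa were lower in KO with PBS. None of the 12 genes in the paragraphs on more positive responses, stromal genes included, kept its call in all 8 fits without 1 library, and 7 of them lost it in every one. All 12 calls were lost without PBS WT replicate 1 or either stimulated KO library, and 8 to 11 without any 1 of the other 5. The largest adjusted p was 0.208, for Bax without stimulated KO replicate 1.

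Fibroblast and stromal markers mostly had differences above 0, of which few passed edgeR's test and more passed that of DESeq2. Of 21 fibroblast and stromal markers, which include collagens, other matrix proteins and PDGF receptors, 2 were called more positive (Col3a1 and Cxcl12) and 0 more negative. All 21 differences lay above 0, with a median of 0.69, and 14 were more positive at unadjusted p below 0.05. DESeq2 called 9 more positive and 0 more negative, and edgeR with library size alone 3 and 0. By limma-voom 1 was called, and 0 in any of the 8 fits without 1 library. Col3a1, a fibrillar collagen, was at 22.5 and 25.6 CPM in WT and 37.98 and 38.3 in KO with PBS, and at 16.9 and 16.6 and 51.04 and 49.9 after stimulation (0.93 ± 0.12, adjusted p = 0.0411). The stromal chemokine Cxcl12 fell from 6.84 and 8.197 to 2.24 and 2.34 CPM in WT and went from 11.9 and 13.01 to 11.001 and 9.82 in KO (1.45 ± 0.20, adjusted p = 0.044). P4ha2, a prolyl hydroxylase that modifies collagen, was at 4.07 and 3.73 CPM in WT and 12.4 and 10.9 in KO after stimulation (1.27 ± 0.18, adjusted p = 0.0466). The summed level of the 21 markers was 486 and 519 CPM in WT and 760.5 and 793 in KO with PBS. After stimulation it was 302 and 295 CPM in WT and 779 and 693 in KO. KO libraries were thus higher under both treatments, and none of the 21 markers was at 0 in any library. In these bulk libraries more stromal cells and more stromal RNA per cell in KO cannot be told apart, and the part of stromal cells in these differences was not tested. Summed markers of B and plasma cells, 8 of 11 tested, were at 55.97 and 55.8 CPM in WT and 70.4 and 77.3 in KO with PBS, and at 11.7 and 14.97 in WT and 67.6 and 57.5 in KO after stimulation. Those of dendritic cells, 7 of 10 tested, were at 7.17 and 7.84 CPM in WT and 10.98 and 11.5 in KO with PBS, and at 7.53 and 11.1 in WT and 27.6 and 25.5 in KO after stimulation. Both summed levels were thus highest relative to WT in stimulated KO libraries, with 0 members called by edgeR or limma-voom. The members did not share a sign. Of the B and plasma cell markers 4 lay below 0 and 4 above it (median 0.10, range -7.32 to 7.32). Of the dendritic cell markers 3 lay below 0 and 4 above it (median 0.74, range -2.87 to 1.32). The part of these 2 lists in the differences was not tested either. At unadjusted p below 0.05 the B and plasma cell list had 2 more positive and 1 more negative members, as by DESeq2, and the dendritic cell list 1 and 0, with 0 by DESeq2.

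A small set of genes had genotype effects that changed strongly with treatment. The zinc finger gene Zfp180 (chromosome 7, 24081924 to 24107713, plus strand) was at 4.895 and 3.47 CPM in WT and 27.8 and 27.5 in KO with PBS, and at 24.9 and 23.99 and 4.99 and 5.48 after stimulation (-4.95 ± 0.24, adjusted p = 0.00178). Its level in stimulated KO libraries was close to that in WT libraries with PBS, and the other 4 libraries were alike. Gm12435, a processed pseudogene that may share counts with its parent gene, had the opposite order. It was at 49.5 and 33.7 CPM in WT and 3.15 and 2.45 in KO with PBS. After stimulation it was at 2.64 and 3.05 CPM in WT and 30.6 and 60.4 in KO (7.89 ± 0.54, adjusted p = 0.00435). Eme2, a subunit of a DNA structure-specific endonuclease, was low in KO with PBS, at 2.04 and 1.65 CPM, and at 12.996 to 17.8 CPM in the other 6 libraries (2.87 ± 0.29, adjusted p = 0.0152). Gpr176, an orphan receptor, was likewise at 0.851 and 0.529 CPM in KO with PBS and at 6.89 and 9.24 after stimulation, against 7.18 and 9.04 and 11.5 and 9.15 in WT (3.197 ± 0.39, adjusted p = 0.0279). The predicted gene Gm16867 was higher in KO under both treatments, and further apart after stimulation. It was below 1 CPM in every WT library, at 4.596 and 5.43 CPM in KO with PBS and at 31.9 and 29.8 after stimulation (3.25 ± 0.24, adjusted p = 0.00535). Zfp180, Gm12435 and Gm16867 kept their call without any 1 library. Eme2 or Gpr176 lost theirs in 7 of the 8 fits, up to an adjusted p of 0.0986 for Gpr176 without stimulated KO replicate 2.

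The remaining genes with a more negative response are given by name. Those that rose in both genotypes were Slamf8, Ppfibp2, Lgals3bp, Alas1, which encodes the first enzyme of heme synthesis, Pid1 and Wnt6, whose WT libraries with PBS held 0 counts, so no fold is given. Gm21399, a pseudogene that may share counts with its parent gene, and the asparaginyl-tRNA synthetase Nars rose in WT with no call in KO. Gm14399, Thnsl1 and Ttc12 rose in WT and fell in KO, and A530064D06Rik and Rnf128 fell in KO only by its own test. Mir22, Gm37168, Wdtc1, Cd5l, a secreted protein of macrophages, and Cd300lb, a myeloid surface receptor, fell in both.

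Most lists of inflammatory genes had few calls, with list medians between -0.24 and 0.20, or between -0.13 and 0.33 by library size alone. The NF-kB list had 1 of 45 (Saa3, more negative), and the chemokine list had Ccl5 more negative and Cxcl12 more positive among 23. SOCS genes and cytokine receptors had 1 of 27 called (Tnfrsf1b), and 0 of 30 immediate early genes were called by edgeR or limma-voom, with 5 more positive and 3 more negative at unadjusted p below 0.05 and 1 and 2 by DESeq2. Macrophage core genes had 2 of 28 called more negative (Itgax and Marco), with a median of -0.21 (-0.10 by library size alone). Iron and heme genes had 2 more negative (Hmox1 and Blvrb) and 1 more positive (Cd163) of 17, with a median of -0.50.

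None of 17 genes tied to the question of the study was called by edgeR or limma-voom. At unadjusted p below 0.05 there were 4 more positive and 1 more negative, and DESeq2 called 1 in each direction. Zbp1, which binds left-handed RNA and DNA and can start necroptosis, was at 10.5 and 14.2 CPM in WT and 15.6 and 19.98 in KO with PBS. After stimulation it was at 422 and 442 and 485 and 481 CPM (-0.37 ± 0.23, adjusted p = 0.63). For Nlrp3, the sensor that nigericin activates, the levels after stimulation were 132 and 105 CPM in WT and 122 and 115 in KO (-0.07 ± 0.17, adjusted p = 0.952). The stimulated libraries of both genotypes overlapped for Nlrp3, and for Zbp1 the KO libraries were the higher ones. Il1b, the cytokine matured by the inflammasome, was at 1076 and 1030.4 CPM in WT and 1594 and 1398 in KO (0.55 ± 0.17, adjusted p = 0.269), and Mlkl, the effector of necroptosis, gave -0.62 ± 0.16 (adjusted p = 0.2). The Mettl3 difference itself was -0.44 ± 0.19 (adjusted p = 0.492).

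Among lists with 0 calls by edgeR, a few had medians away from 0. Of 32 G2 and mitosis genes, 28 lay above 0 with a median of 0.66, and 14 were more positive and 0 more negative at unadjusted p below 0.05. DESeq2 called 5 of them more positive and limma-voom 0. The mitotic kinesin Kif20a, for example, fell from 6.43 and 4.87 to 0.909 and 1.34 CPM in WT and from 7.37 and 7.0001 to 3.15 and 3.61 in KO (1.24 ± 0.33, adjusted p = 0.223). Of 23 cholesterol synthesis genes, 21 lay above 0 with a median of 0.36, with 11 more positive and 0 more negative at unadjusted p below 0.05, 7 by DESeq2 and 1 by limma-voom. Cyp51, the sterol demethylase, was at 21.4 and 21.9 CPM in WT and 33.7 and 31.9 in KO after stimulation (0.75 ± 0.11, adjusted p = 0.0529). All 45 cytosolic ribosomal protein genes lay below 0 with a median of -0.25, with 17 more negative and 0 more positive at unadjusted p below 0.05, 1 by DESeq2 and 0 by limma-voom. Scaling by library size alone moved this median to -0.14. Of 24 m6A genes edgeR and limma-voom called 0, DESeq2 called 1 more positive, and at unadjusted p below 0.05 there were 1 more positive and 3 more negative, with a median of -0.05 (0.06 by library size alone).

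**Figure D5:**
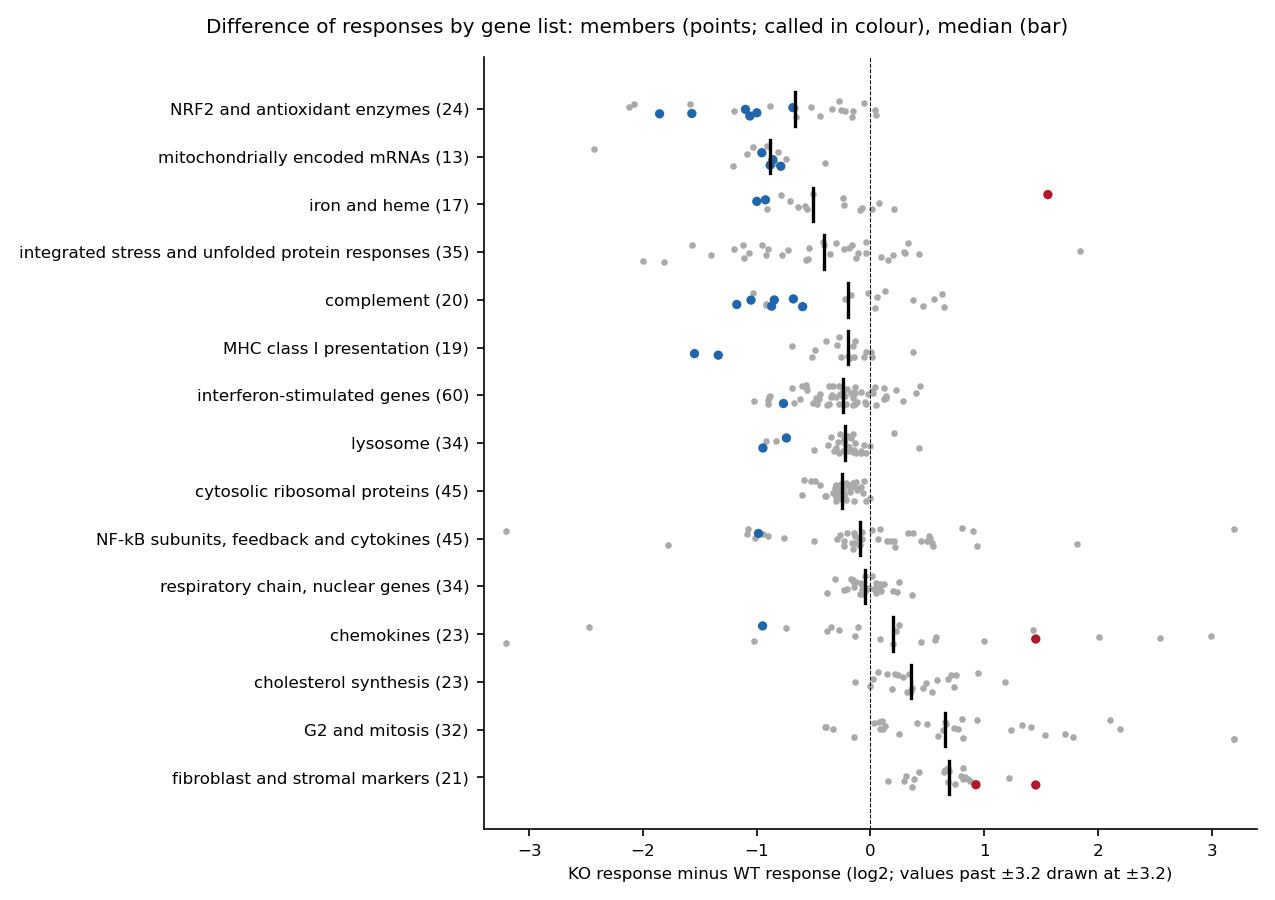
Difference of responses (KO minus WT, log2) of the members of each gene list, with points for genes, colour for called genes and a bar for the list median. The antioxidant and mitochondrial mRNA lists lie mostly to the left of 0, and the stromal, G2 and mitosis and cholesterol synthesis lists mostly to the right.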

How the data were processed

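RNA of mouse bone marrow-derived macrophages was sequenced after Trizol extraction, per the labels' protocols, and the deposited table holds 1 whole-number count per gene and library, made by the authors from their reads. Per the submitters' processing notes, Trimmomatic, Bowtie2, edgeR and mm10 were used. For the counting tool, its annotation and the handling of strand no source used here gives a statement, so overlapping and near-identical genes may share counts. Symbols and coordinates came from GENCODE M21 (GRCm38), which named 55141 of 55401 genes.

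Counts were used as deposited. Genes were kept by filterByExpr (minimum count 10, minimum total 15), and all 8 libraries, with TMM scaling, were fitted together by edgeR 4.0.16 (R 4.3.3) with 1 coefficient per group, which left 4 residual degrees of freedom at a common coefficient of variation of 0.215. The contrast of both responses was tested by the quasi-likelihood test with Benjamini-Hochberg adjustment over all tested genes at 0.05. The code was tested on simulated data. Libraries of a group differed by more than counting noise, so none repeats another.

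The 15 most negative and 15 most positive called genes were named, given a group mean of at least 10 CPM and no predicted name. Also required was no overlap of responses. The stimulated minus PBS differences of log CPM in KO thus lay all above or all below those in WT. Up to 4 members of each list with at least 2 called were named too, as were the genes of the study's question. Others were named after their values were seen, and the remaining called genes are listed by name. Asns, Ddit3, Kif20a and Cyp51 are uncalled examples of this kind, from lists with 0 calls by edgeR, and need not be typical of those lists. The 46 gene lists and the genes described were chosen with earlier results of these data known. Alternatives were DESeq2 1.42.0 and its size factors, library size alone, limma-voom (limma 3.58.1), no filter, 5 CPM in 2 libraries, a replicate block and each library left out. Figures used matplotlib 3.10.9 in Python 3.11.15.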

Additional observations from a re-analysis of the deposited data

Results flagged for a closer look

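The responses of the genotypes to LPS and nigericin differed by the test of the difference itself (edgeR, adjusted p below 0.05) for 69 genes with a more negative response in KO and 18 with a more positive one. The values below are KO response minus WT response on the log2 scale for the genes given above with their values, with 2 libraries per group. Called genes given above by name alone are left out of this order, some with larger differences, such as Mir22 -5.33, Gm37168 -3.07, Gm14399 -2.62, Thnsl1 -1.92 and Gm21399 -1.75. Sizes near the floor are uncertain. In stimulated KO libraries Mir22 was at 0.018 and 0.030 CPM and Gm37168 at 0.235 and 0.244, and limma-voom called neither gene. In order of size, the more negative values began with Zfp180 -4.95, Fpr1 -2.18, Ass1 -2.14, Marco -2.09, Fpr2 -1.88, Gclm -1.85, Scd2 -1.80, Ptgr1 -1.59, Prdx1 -1.57, H2-Q6 -1.55 and Rell1 -1.50. They went on with Dnajb4 -1.49, Tgfbi -1.48, Esd -1.42, Pck2 -1.36, H2-Q7 -1.34, Clec4n -1.32, Slpi -1.27, Akr1b8 -1.25, Vwf -1.22, Cd55 -1.17 and Panx1 -1.14. Next came Cd38 -1.12, Atf5 -1.10, Cat -1.10, Srxn1 -1.06, Itgax -1.05, Sqstm1 -1.04, Hmox1 -1.0, Aoah -0.98, Saa3 -0.98, Sgk1 -0.97 and Cbr3 -0.96. These were followed by mt-Cytb -0.95, Ccl5 -0.95, Lipa -0.94, Blvrb -0.92, Igf1 -0.91, mt-Nd6 -0.88, C3 -0.87, mt-Nd2 -0.86, Cfb -0.84, mt-Nd5 -0.79 and Oasl1 -0.76. The smallest more negative differences were Gpnmb -0.74, Psap -0.74, Pgd -0.68, C3ar1 -0.68, Itgb2 -0.60, Mmp12 -0.58 and Tnfrsf1b -0.56. The more positive differences began with Bax 0.64, Fzd7 0.88, Col3a1 0.93, Nagpa 1.0, Antxr2 1.07, Cd14 1.13, Tanc1 1.26, P4ha2 1.27, mt-Rnr2 1.32 and Syne2 1.34. The largest more positive differences were Cxcl12 1.45, Cd163 1.56, Setd6 1.58, mt-Rnr1 2.03, Eme2 2.87, Gpr176 3.2, Gm16867 3.25 and Gm12435 7.89. Each of these genes was called by DESeq2 as well. No group held the 4 samples or more that a check for single outlying samples needs.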

How the results depend on the processing

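The counts of 18 more positive and 69 more negative genes became 190 and 294 with DESeq2, which called all 87. Leaving out 1 library gave 5 to 31 more positive and 15 to 63 more negative genes. Counts stayed within 1.5 times with DESeq2 size factors (18 and 68), limma-voom (17 and 67), no filter (12 and 61) and 5 CPM in 2 libraries (27 and 73). With library size alone they were 25 and 61, so that the more negative share moved from 79.3%, and the median of all genes rose to 0.10. With the replicate number as a block, 12 and 48 genes were called, of which 8 and 48 were called without it. The numbers do not pair the samples by the labels, and the correlation of deviations between same-numbered libraries of 2 groups ran from -0.0478 to 0.282 over 10025 genes. No called gene given with its values changed direction under any alternative run. Uncalled genes near 0 could change sign with the scaling. For the 17 genes of the study's question, the median moved from -0.04 to 0.07 with library size alone. With 4 residual degrees of freedom, small differences could go unseen, most of all for genes with few counts.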

Other observations

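Some lists not described above had 0 called members by edgeR and limma-voom but members on one side of 0. Of 27 hypoxia and glycolysis genes, 20 had a difference above 0, with a median of 0.20. At unadjusted p below 0.05, 7 were more positive and 2 more negative in KO, and DESeq2 called 6 and 0. Of 28 potassium and other ion channel genes, 19 lay below 0 with a median of -0.17, with 0 more positive and 4 more negative at unadjusted p below 0.05 and 0 and 3 by DESeq2. The 15 MHC class II presentation genes had a median of -0.27, with 0 and 5 at unadjusted p below 0.05 and 0 by DESeq2. Of 32 DNA replication and S phase genes, in contrast to those of G2 and mitosis, 16 lay on each side of 0, with 3 more positive and 1 more negative at unadjusted p below 0.05 and 0 by DESeq2. The difference between these lists was not tested.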
